A study of Homo sapiens with 6 samples.

Results

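The ribosome biogenesis and nucleolar genes described here are 32 genes listed by symbol, which encode nucleolar proteins and a few enzymes of polyamine and pyrimidine synthesis that MYC is known to drive. All 32 symbols matched 1 Ensembl gene each among the 27576 genes of the expression table, and all 32 reached the minimum for the test (1 normalised read in 3 or more libraries), as did 21946 genes in all. The study sequenced RNA of Kasumi-1, an established human acute myeloid leukaemia cell line with the t(8;21) fusion of RUNX1 and RUNX1T1. Cells of the control group received 0.5% bovine serum albumin (BSA) and cells of the other group 10 ng/ml of recombinant human interleukin-10 (IL-10), both for 72 h in medium with 20% fetal bovine serum. Each group had 3 libraries, numbered 1 to 3 in their titles, so a pair below is a control and an IL-10 library of the same number. A single cell line was used. Whether the 3 libraries of a group came from separate cultures is not stated, so any p-value here speaks only for the spread among these libraries, which could be technical. RNA was taken from cells in bulk, where fewer cells of a kind and less RNA per cell cannot be told apart.

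Ribosomes are made in the nucleolus, where RNA polymerase I transcribes the ribosomal RNA precursor. Small nucleolar ribonucleoprotein particles (snoRNPs) then modify that RNA, and large sets of assembly factors fold and cut it and add ribosomal proteins, forming the small (40S) and the large (60S) subunit. MYC, a transcription factor that binds the sequence CACGTG (an E-box) with its partner MAX, raises transcription of many of these genes, and ribosome production is high in growing leukaemia cells.

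Values are normalised read counts: the deposited values are reads divided by 1 size factor per library. Recovered depth was 20750115 to 24222897 reads per library. IL-10 replicate 2 had the smallest size factor, 0.851, at a depth of 23077693 reads, so its total of normalised reads was the largest. Values below are as deposited unless another scaling is named. All 9 genes fixed as defining Kasumi-1 were detected in every library, with RUNX1T1 at 3071 to 3878, KIT at 29296 to 54533 and CD34 at 11415 to 14919. CD38, the lowest of the 9, was at only 27.0 to 38.0. Of 15 hepatocyte markers, 14 were higher in both replicate 2 libraries than in the other 4 libraries, and 7 of them had 0 reads in those 4. Among these 7, FGB (0.99 in control and 1.18 in IL-10 replicate 2) and TTR (2.98 and 1.18) were very low in replicate 2 too. ALB was 112 in the second control and 31.7 in the second IL-10 library, and 0.89 or less elsewhere. The hepatocyte list summed to 2094 and 1729 in those libraries and to 1325 to 1686 in the others. Without SERPINA1, which myeloid cells also express and which was lower in both replicate 2 libraries (879 and 1158, against 1299.6 to 1664), the other 14 summed to 1215 and 571, against 15.0 to 29.4. Airway secretory markers (8 found of 9 listed) summed to 273 to 339 in control and 176 to 203 with IL-10, fibroblast and endothelial markers (6 of 10) to 55.6 to 112 over the 6 libraries, and T and NK cell markers (8 of 9), mostly CD3D, to 1703 to 2712.

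The 32 genes spanned a wide range of levels. Per kb of transcript, a scale on which genes can be compared, NPM1 (nucleophosmin, an abundant nucleolar chaperone) was highest, at 24301 ± 553 normalised reads per kb in control (mean ± SD, n = 3). FBL (fibrillarin, the methyltransferase of box C/D snoRNPs) followed at 6385 ± 458 and NCL (nucleolin, a nucleolar RNA-binding protein) at 5767 ± 586, and the mean ± SD ranges of these overlapped. UTP20, a scaffold of the small subunit processome, was lowest at 183 ± 60.5, next to PPAN, a 60S assembly factor, at 226 ± 51.7, and their ranges overlapped too. Summed over all 32 genes, the share of all normalised reads was 0.752%, 0.891% and 0.707% in control replicates 1 to 3 and 0.781%, 0.849% and 0.697% in IL-10 replicates 1 to 3. The share was thus highest in both replicate 2 libraries and lowest in both replicate 3 libraries. GENCODE 29 names 45 pseudogenes after NPM1, whose reads may be split among them. It also places a gene on the opposite strand over 11 of the 32 genes and at least 1 snoRNA gene within 8 of them. The use of strand in counting is not given in the sources used here, so reads of such neighbours cannot be told apart.

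**Figure D1:**
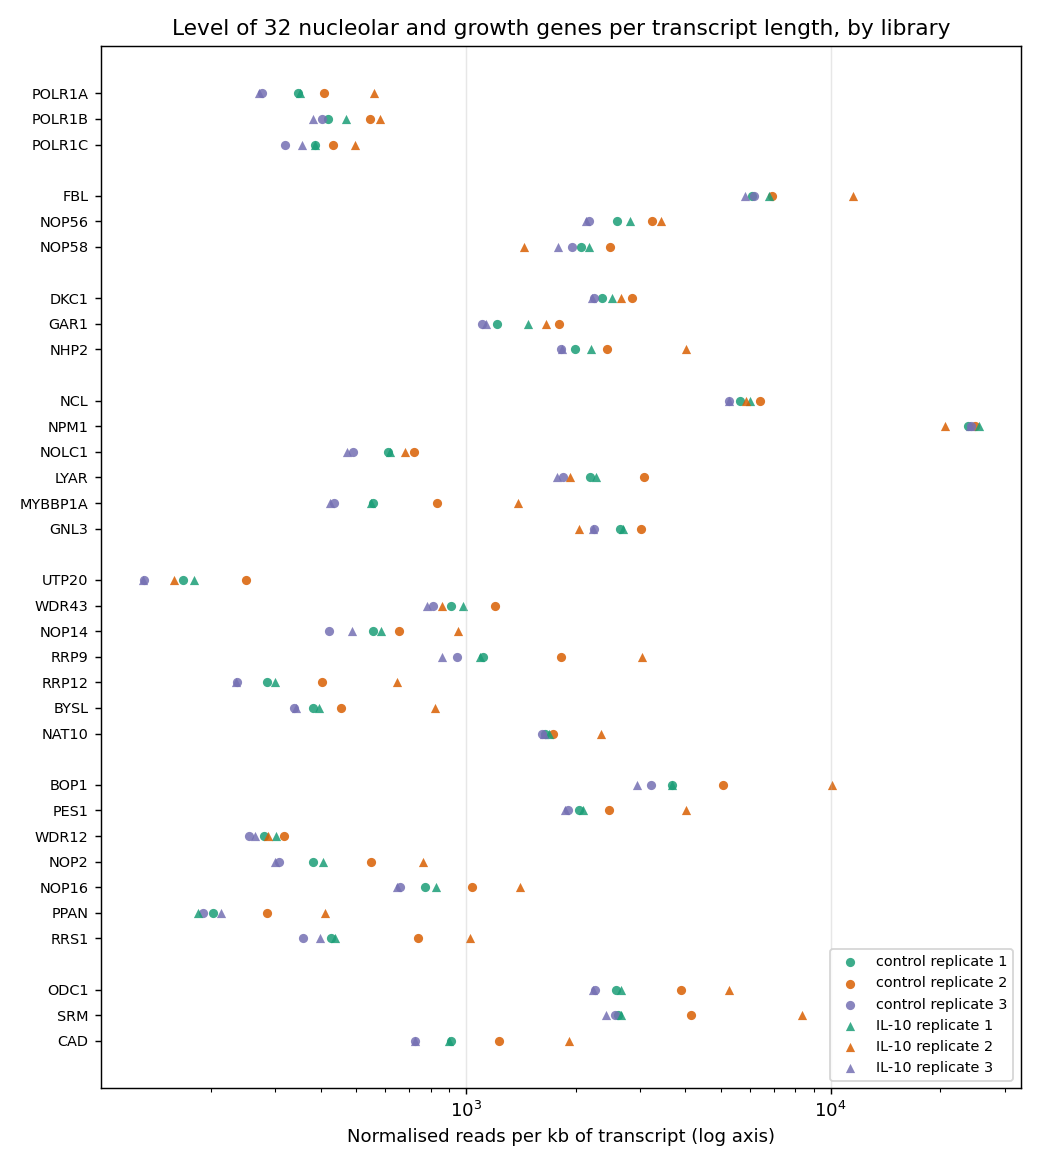
Normalised reads per kb of transcript (log axis) for the 32 genes, grouped by role, with control libraries as circles, IL-10 libraries as triangles and colour for the replicate number. NPM1 lies highest and UTP20 lowest, and within most genes the orange replicate 2 symbols lie to the right and the purple replicate 3 symbols to the left.

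Setting IL-10 against control asks whether 72 h of the cytokine changed transcripts of the ribosome-making machinery. None of the 32 genes passed the threshold, a Benjamini-Hochberg adjusted p under 0.05 over all genes tested in limma (0 of 32, with adjusted p from 0.982 to 0.998), and 0 of 32 had an unadjusted p under 0.05. Over all genes the share past the threshold was 0%, with 344 of 21946 at an unadjusted p under 0.05. edgeR and DESeq2 on the recovered reads also called 0 of the 32, with 0 at an unadjusted p under 0.05 in either. Log2 fold changes, on the log2(value + 1) scale, ran from -0.27 for NOP58 to 0.32 for SRM. The median was 0.16 beside 0.02 for all genes, and 23 of 32 were positive. Among genes averaging 100 or more normalised reads, a level all 32 reached, the median was 0.05 and 6240 of 10505 were positive. No gene of the 32 had all 3 IL-10 libraries above or all 3 below the control libraries, where 2.85% of all genes tested lay above and 3.02% below. The 95% interval of a gene's log2 fold change reached 0.36 to 1.00 to either side (median 0.59), so differences within those bounds were not detectable here. These intervals are for 1 gene at a time and are not adjusted for the number of genes tested. The adjusted threshold is stricter, so differences beyond those bounds could also have gone undetected.

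The direction over the list depended on single libraries. Without IL-10 replicate 2 the median log2 fold change was -0.13 and only 1 of 32 genes was positive, and without control replicate 3 it was 0.00 (-0.004) with 15 positive. In pairs 1 and 3 alone the median was 0.03, with 24 positive.

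RNA polymerase I was represented by 3 subunits. POLR1A (ENSG00000068654, chr2:86020216-86106155), the largest catalytic subunit, stood at 4408, 5219.8 and 3517 in control replicates 1 to 3 and 4477, 7120.3 and 3456 in IL-10 replicates 1 to 3. Its IL-10 replicate 2 value was the highest and both replicate 3 values were the lowest, and the groups overlapped. The log2 fold change was 0.15 (SE 0.27, limma adjusted p = 0.982). POLR1B, the second-largest subunit, had a log2 fold change of 0.06 and POLR1C, shared with RNA polymerase III, one of 0.12, each with the same order of replicates 2, 1 and 3 in control.

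Box C/D snoRNPs guide methylation of the ribosomal RNA through FBL, NOP56 and NOP58. FBL stood at 7049, 8017 and 7154 in control and 7843, 13343 and 6761 with IL-10, so only IL-10 replicate 2 lay apart from the rest. NOP58 (ENSG00000055044, chr2:202265716-202303666), its partner in the same particle, stood at 4228, 5076 and 3989 in control and 4454, 2961 and 3665 with IL-10. Here IL-10 replicate 2 was the lowest of the 6 libraries, opposite to its place for FBL. NOP56, the paralog of NOP58, stood at 6223, 7780.4 and 5206 and 6763, 8215 and 5124, high in both replicate 2 libraries. The log2 fold changes were 0.27 (SE 0.25), -0.27 (SE 0.19) and 0.06 (SE 0.22), with limma adjusted p of 0.982, 0.982 and 0.987. Transcripts of proteins that act in 1 particle thus differed in direction in this library: the log2 ratio of IL-10 to control in pair 2 was 0.73 for FBL and -0.78 for NOP58, while in pairs 1 and 3 both genes lay between -0.12 and 0.15.

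Box H/ACA snoRNPs guide pseudouridylation. DKC1 (dyskerin, the pseudouridine synthase, also part of telomerase) had mean normalised read counts of 6394 ± 833 in control and 6342 ± 582 with IL-10 (± SD, n = 3), a log2 fold change of -0.01 with a 95% interval of -0.39 to 0.37. GAR1 was at 1492, 2197 and 1359 in control and 1813, 2036 and 1386 with IL-10, and NHP2 at 1719.8, 2114 and 1579 and 1908, 3473 and 1587. Both replicate 2 libraries were the highest for GAR1, and IL-10 replicate 2 stood alone for NHP2. GAR1 also had the largest ratio of the 32 genes in pair 1, 0.28 on the log2 scale, against 0.03 in pair 3.

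Nucleolar proteins with wider roles had mostly negative values. NPM1 (ENSG00000181163, chr5:171387116-171411137) stood at 41819.8, 43752 and 42593 in control and 44765, 36295 and 42389 with IL-10, and NCL (ENSG00000115053, chr2:231453531-231483641) at 22740.1, 25847 and 21206 and 24215, 23659 and 21259. For NPM1 the IL-10 replicate 2 library was the lowest and the other 5 differed little. NCL kept within a narrow range in all 6. LYAR, a nucleolar zinc finger protein, was high in control replicate 2 alone, at 3428, 4829.9 and 2892 in control against 3573, 3022 and 2796 with IL-10. GNL3 (nucleostemin, a GTPase of stem and cancer cells) had -0.18 on the log2 scale and NOLC1, a phosphoprotein that binds snoRNPs, -0.04. MYBBP1A, a nucleolar MYB-binding protein, was the exception, at 2675, 4003 and 2093 in control and 2644, 6684 and 2038 with IL-10, with IL-10 replicate 2 far above the others. Of these 6 genes 5 had a negative log2 fold change, and 0 passed the threshold. Transcript GC content was 60.9% for MYBBP1A and 43.3% (NPM1) to 47.8% (NOLC1) for the other 5, so role and GC content cannot be told apart here.

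The small subunit was represented by 7 genes. RRP9, a U3 snoRNP protein needed for early cuts in the precursor, stood at 1763, 2878 and 1496 in control and 1725, 4803 and 1360.1 with IL-10. BYSL (bystin, which acts late on the 40S subunit) was at 774, 919.8 and 687 and 802, 1670.2 and 696. In both genes IL-10 replicate 2 was the highest and control replicate 2 came next. UTP20 differed, at 1516, 2248 and 1182 in control and 1622, 1427 and 1176 with IL-10, with control replicate 2 the highest and IL-10 replicate 2 above only both replicate 3 libraries. WDR43, another processome subunit, shared that pattern at 3219, 4237 and 2874 and 3468, 3043 and 2759. NOP14, RRP12 (an export factor) and NAT10 (an RNA cytidine acetyltransferase) were highest in IL-10 replicate 2, and their log2 fold changes were 0.27, 0.25 and 0.17. Of the 7 genes 5 were positive and 0 passed.

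Assembly of the large subunit was represented by 7 genes, all with positive log2 fold changes from 0.00 to 0.29 and 0 past the threshold. BOP1 (ENSG00000261236, chr8:144262102-144291370), PES1 and WDR12 form the PeBoW complex, needed for processing of the 60S precursor. BOP1 stood at 8455, 11648 and 7420.0 in control and 8449, 23242 and 6799 with IL-10, and PES1 at 4697, 5662 and 4379 and 4810.5, 9224 and 4279.8, with IL-10 replicate 2 far above the rest in both. WDR12 stood at 2267, 2576 and 2059 and 2445, 2321 and 2138, and there IL-10 replicate 2 lay among the others. The 3 members of this complex thus had pair 2 log2 ratios of 1.00, 0.70 and -0.15 as deposited. Their transcript GC contents were 65.2%, 58.1% and 40.2%, and the ratios corrected for GC content and length, given below, were all positive. NOP2 (a ribosomal RNA methyltransferase), NOP16, PPAN and RRS1, which loads the 5S particle, had their highest value in IL-10 replicate 2 and their second highest in control replicate 2. PPAN is overlapped on the same strand by the read-through gene PPAN-P2RY11, so its reads may be split.

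Growth enzymes outside the nucleolus followed BOP1 more than NCL. ODC1 (ornithine decarboxylase, the rate-limiting enzyme of polyamine synthesis) stood at 6853, 10304 and 6002 in control and 7047, 14002 and 5914 with IL-10. SRM (spermidine synthase) was at 3302, 5238 and 3239 and 3372, 10595 and 3062, the gene with the largest log2 fold change of the 32, 0.32, and a 95% interval of -0.67 to 1.31. CAD, which carries out the first steps of pyrimidine synthesis, was at 6595, 8939 and 5267 and 6512, 13894 and 5279.9. In all 3, both replicate 2 libraries were above the other 4, and the other 4 overlapped between the groups. Transcript GC content was 51.2% for ODC1, 63.7% for SRM and 57.7% for CAD, beside 65.2% for BOP1 and 47.2% for NCL.

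**Figure D2:**
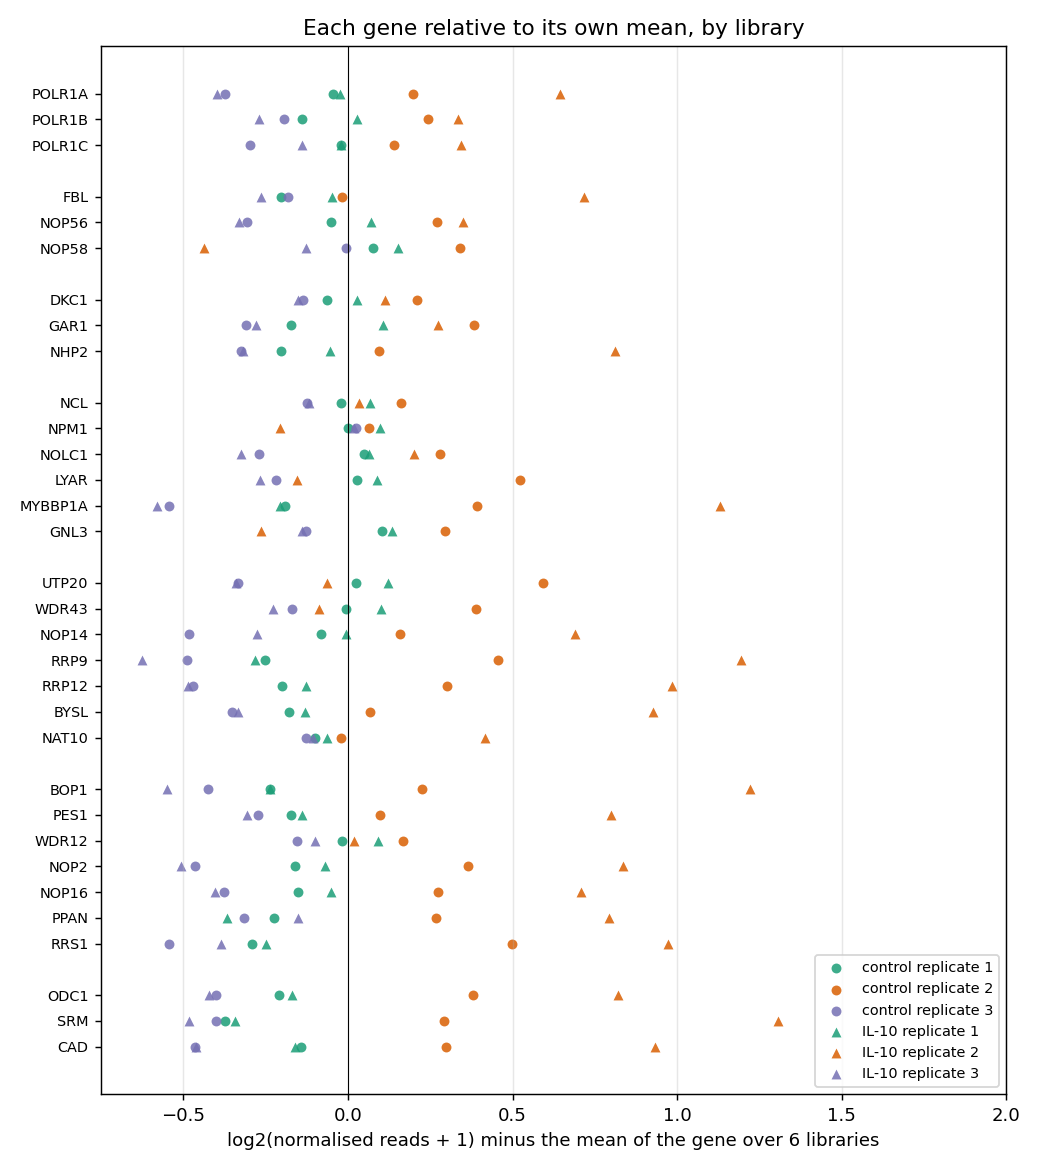
Log2(normalised reads + 1) of each gene minus its own mean over the 6 libraries, with control libraries as circles, IL-10 libraries as triangles and colour for the replicate number. IL-10 replicate 2 (orange triangles) ranges from the far left for NOP58 to the far right for SRM, while control replicate 2 (orange circles) lies right of control replicates 1 and 3 for all 32 genes.

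The order of the genes in IL-10 replicate 2 followed the GC content of their transcripts. To show the contrast, stretches of coding sequence are given for SRM, among the highest in transcript GC content, and for the 2 lowest genes, WDR12 and WDR43. Each is the first 120-base in-frame stretch whose GC content came closest to that of the whole GENCODE 29 transcript (GRCh38), and capitals mark G and C. The SRM transcript has 63.7% GC, and bases 88 to 207 of the 906-base coding sequence are shown (ENSG00000116649, chr1:11054584-11060024, minus strand). WDR12 has 40.2%, with bases 13 to 132 of the 1269-base coding sequence (ENSG00000138442, chr2:202874782-203014798, minus strand). WDR43 has 40.3%, with bases 235 to 354 of the 2031-base coding sequence (ENSG00000163811, chr2:28894643-28948222, plus strand). All stretches are exonic and written 5′ to 3′.
SRM: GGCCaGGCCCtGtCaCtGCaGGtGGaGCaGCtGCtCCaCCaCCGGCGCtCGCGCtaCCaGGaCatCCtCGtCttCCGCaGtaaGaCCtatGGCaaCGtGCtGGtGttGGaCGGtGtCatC
WDR12: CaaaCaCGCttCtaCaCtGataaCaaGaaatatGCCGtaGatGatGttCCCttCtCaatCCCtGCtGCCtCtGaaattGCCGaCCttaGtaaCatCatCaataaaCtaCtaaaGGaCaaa
WDR43: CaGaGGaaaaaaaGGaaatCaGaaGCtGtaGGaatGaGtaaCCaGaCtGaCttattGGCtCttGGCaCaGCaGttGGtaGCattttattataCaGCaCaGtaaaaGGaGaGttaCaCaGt

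In pair 2 the log2 ratio of IL-10 to control was 1.02 for SRM, -0.15 for WDR12 and -0.48 for WDR43. All 20 genes with a GC content of at least 50% had a positive ratio in that pair (median 0.58, from 0.08 to 1.02), and 11 of the 12 under 50% had a negative one (median -0.21, from -0.78 to 0.09). The exception was POLR1B, at 0.09 with 47.1% GC. The split was not particular to these genes. Among genes averaging 100 or more normalised reads, 4604 of 4842 of at least 50% GC were positive (median 0.57). Of those under 50%, 4100 of 5643 were negative (median -0.25). Across the 32 genes, which share these libraries and are not independent replicates, GC content and the pair 2 ratio had a Spearman rho of 0.93, against -0.51 for pair 1 and -0.15 for pair 3. Over 10485 genes averaging 100 or more normalised reads the same values were 0.87, -0.20 and -0.03. The 20 GC-rich genes had medians of 0.04 in pair 1 and -0.02 in pair 3, and the other 12 had 0.09 and -0.01.

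**Figure D3:**
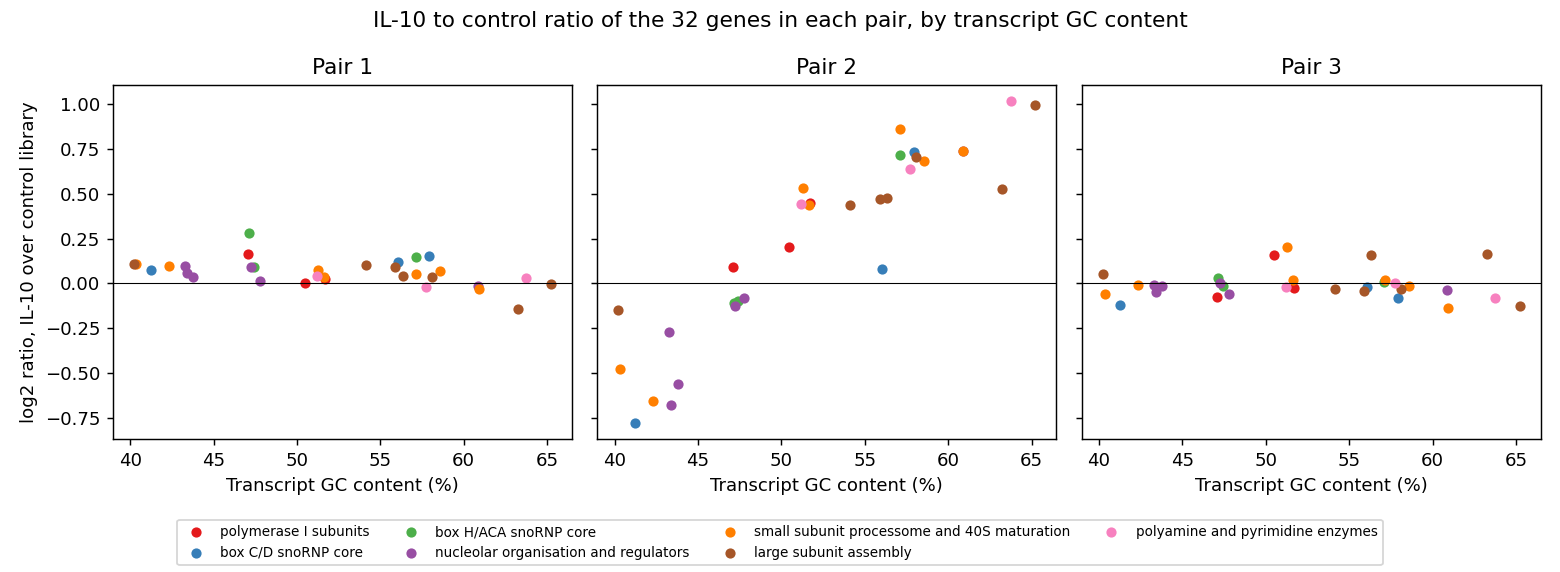
Log2 ratio of the IL-10 to the control library (vertical axis) against transcript GC content in percent (horizontal axis) for the 32 genes, with 1 panel per pair and colour for the role. In pair 2 the points climb from -0.78 for NOP58 to 1.02 for SRM, while in pairs 1 and 3 they stay between -0.14 and 0.28.

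Counted by pair, IL-10 was above control for 27 of 32 genes in pair 1, 21 in pair 2 and 11 in pair 3, beside 52.7%, 58.6% and 48.9% of the 10505 genes averaging 100 or more normalised reads. In pair 1 the differences were small, with a median of 0.07 on the log2 scale, and in pair 3 the median was -0.02. After a correction of the log2 values for transcript GC content and length within each library, the median in pair 2 was 0.04 in place of 0.44, with 18 positive and 14 negative, and rho with GC content was 0.41 across the 32 genes and 0.04 over the 10485. Among box C/D genes the corrected pair 2 ratio was 0.16 for FBL, -0.40 for NOP56 and -0.40 for NOP58. Among growth enzymes it was 0.18 for ODC1, 0.28 for SRM and 0.16 for CAD. In the PeBoW complex it was 0.25 for BOP1, 0.15 for PES1 and 0.37 for WDR12, so the difference in direction as deposited was not seen after the correction. In the fit of all 6 libraries on corrected values, the median log2 fold change of the 32 genes was 0.03 with 22 positive, and limma called 0 of them.

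All 32 genes were higher in control replicate 2 than in both other control libraries, where 46.4% of genes averaging 100 or more were. The differences from the mean of control replicates 1 and 3 ran from 0.05 for NPM1 to 0.92 for RRS1 on the log2 scale, with a median of 0.45 beside 0.03 for all those genes. RRP9 (0.83), MYBBP1A (0.76), UTP20 (0.75) and the growth enzymes ODC1, SRM and CAD (0.60 to 0.68) were among the larger ones, so both GC-rich and GC-poor transcripts were included. The rho with GC content was 0.37 across the 32 genes. With equal totals or quantile normalization 31 of 32 were still above both. This is a comparison of 1 library with 2 others and has no replicate check, and the hepatocyte markers above were also higher in this library; their part in the result was not tested.

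IL-10 replicate 2 was above both other IL-10 libraries for 24 of the 32 genes (52.0% of genes averaging 100 or more). It was below both for 3, NOP58, NPM1 and GNL3 (4200 of 10505 genes averaging 100 or more). With equal totals or quantile normalization the 24 became 20. Its difference from the mean of IL-10 replicates 1 and 3 had a median of 0.84, from -0.45 to 1.72, beside a median of 0.11 for genes averaging 100 or more. These medians were 0.53 beside -0.20 with equal totals and 0.44 beside 0.01 with quantile normalization. After GC and length correction the median was 0.48, beside 0.08 for genes averaging 100 or more, of which 6053 were positive and 4432 negative. Of the 32 genes 28 were positive, and their range narrowed to -0.04 to 0.95. The correction did not remove the relation to GC content among these genes: rho was 0.92 before it and 0.52 after it, beside 0.78 and 0.07 over all genes of that level. The corrected difference of control replicate 2 had a median of 0.44, beside 0.06 for genes averaging 100 or more. UTP20, at 0.05 before the correction, was at 0.50 after it, beside 0.81 in control. NOP56 went the other way, from 0.48 to -0.01, beside 0.44 in control. FBL stood at 0.29 and NOP58 at -0.03 after the correction, while the growth enzymes stood at 0.77 for CAD, 0.86 for ODC1 and 0.92 for SRM. As for control, this sets 1 library beside 2 others with no replicate check, and the hepatocyte markers were higher in this library too; their part in the result was not tested.

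**Figure D4:**
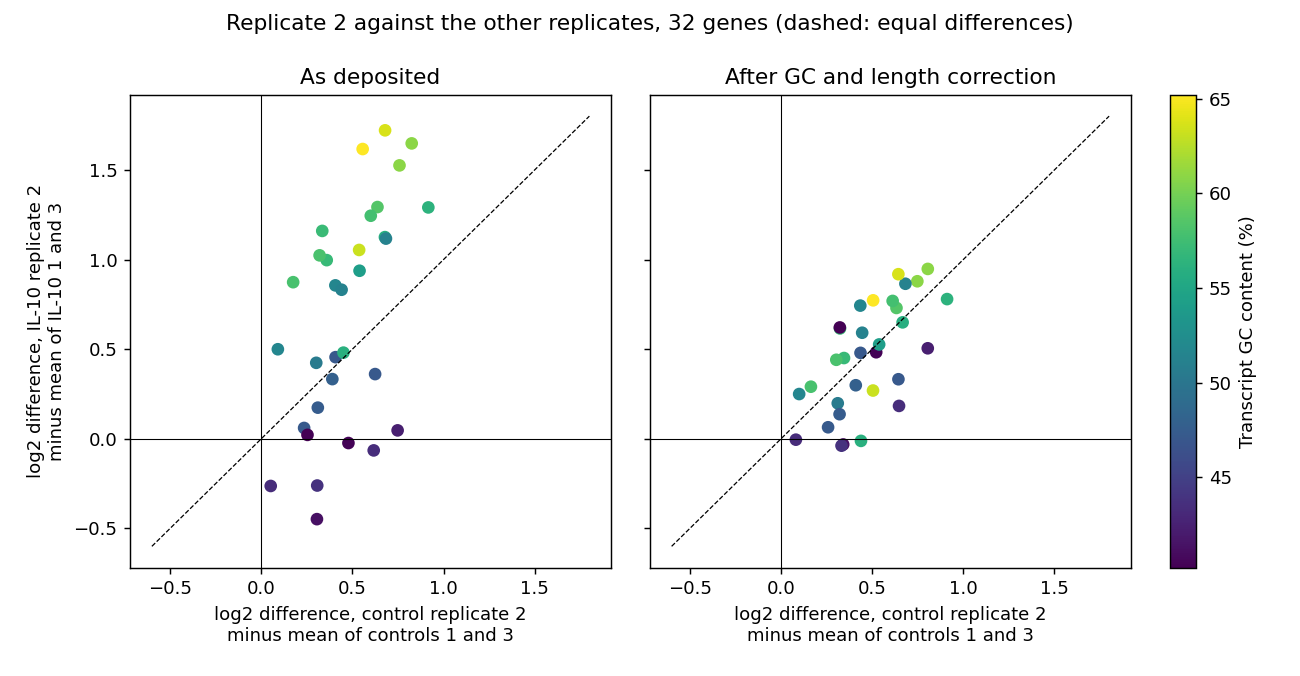
Log2 difference of replicate 2 from the mean of replicates 1 and 3 for the 32 genes, in control (horizontal axis) and with IL-10 (vertical axis), as deposited and after GC and length correction, coloured by transcript GC content in percent. As deposited the points spread vertically by GC content from -0.45 to 1.72, and after the correction they lie nearer the dashed line of equal differences, at -0.04 to 0.95.

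The replicate 1 and replicate 3 libraries also differed, in the same way in both treatments. Of the 32 genes, 26 were higher in replicate 1 than in replicate 3 and 0 were lower in a limma fit of these 4 libraries with treatment and replicate as terms, a fit chosen after the values were seen. Of all genes tested 8.36% were called higher and 6.45% lower. Among genes averaging 100 or more, 16.6% were called higher and 1077 of 10505 lower. The median log2 difference of the 32 genes was 0.23, beside 0.01 for all genes tested and 0.03 for those averaging 100 or more. Within the control and within the IL-10 libraries alike, 29 of 32 were higher in replicate 1, as were 4701 of 10505 genes averaging 100 or more. The called genes came from every role: 2 of 3 polymerase subunits, 2 of 3 box C/D and 3 of 3 box H/ACA genes, 5 of 6 nucleolar regulators, 6 of 7 genes of each subunit and 2 of 3 growth enzymes.

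UTP20 had the largest difference, at 1516 and 1622 in replicate 1 against 1182 and 1176 in replicate 3, a log2 difference of 0.41 (SE 0.06, limma adjusted p = 7.89e-11). NOP2 had 0.37 (SE 0.06, adjusted p = 1.19e-07) and MYBBP1A 0.36 (SE 0.05, adjusted p = 3.56e-11). Among abundant transcripts NOP56 had 0.33 (adjusted p = 1.03e-12) and NCL 0.14 (adjusted p = 0.0014). The 6 genes that did not pass were POLR1C (0.20), FBL (0.10), SRM (0.08), NAT10 (0.03), NPM1 (0.03) and PPAN (-0.06). NPM1 and NAT10 were thus the most even across these 4 libraries, and PPAN, the gene with the fewest reads, was the only one with a negative value.

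With 4 libraries this fit leaves 1 residual degree of freedom, and its spread is that between same-numbered libraries. edgeR on the recovered reads called 22 of 32, equal totals 21 and quantile normalization 17, all higher in replicate 1, whereas with all 6 libraries, or with any 1 of the 4 left out, 0 passed in limma although 31 or 32 of 32 values stayed positive. The 9 Kasumi-1 genes were mixed between these replicates. MPO, an abundant granule gene, was higher in replicate 1, at 151854 and 139394 (control and IL-10) against 66945 and 67839 in replicate 3. KIT, CD33 and SPI1 were also higher there in both treatments. RUNX1, CD34 and PTPRC were lower, with PTPRC at 6641 and 6609 against 8099 and 8099, and RUNX1T1 and CD38 differed by treatment. The 9 genes summed to 247253 and 233131 against 151196 and 152509, with MPO the largest of them in replicate 1. The part of MPO in the result was not tested.

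**Figure D5:**
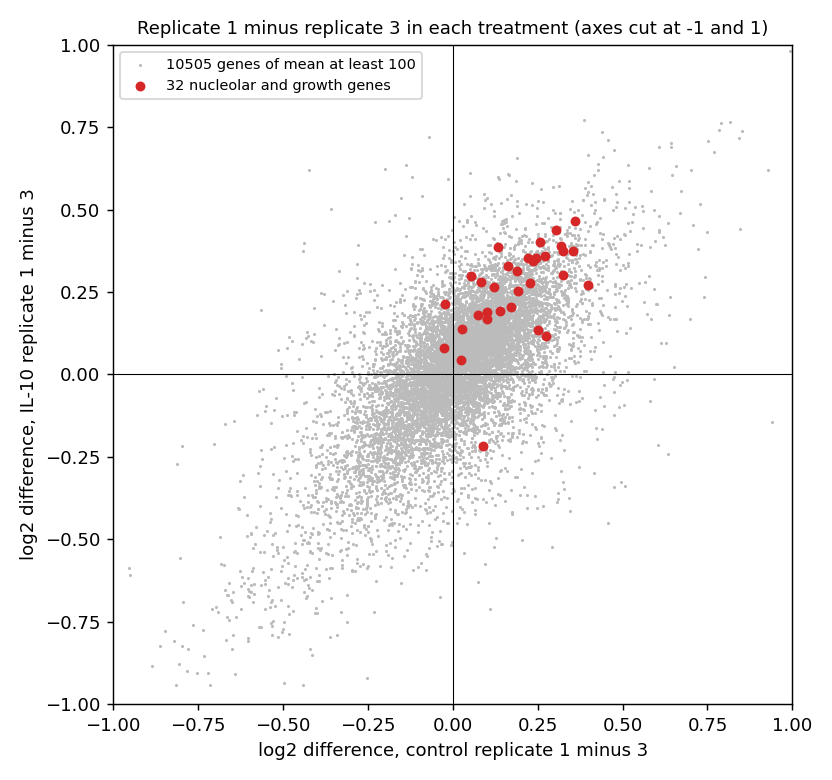
Log2 difference of replicate 1 minus replicate 3 in control (horizontal axis) and with IL-10 (vertical axis), for the 32 genes in red and 10505 genes averaging 100 or more normalised reads in grey, of which 48 lie outside the drawn range of -1 to 1. The red points lie above 0 on both axes but for 3 genes, FBL and NPM1 left of the vertical line and PPAN below the horizontal line.

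MYC itself, the regulator by which the list was drawn up, followed the same order of libraries. It stood at 19759, 22024 and 15949 in control replicates 1 to 3 and 19098, 34174 and 15180.5 in IL-10 replicates 1 to 3, highest in both replicate 2 libraries and lowest in both replicate 3 libraries. For IL-10 against control the log2 fold change was 0.17 (SE 0.29, limma adjusted p = 0.982), with ratios of -0.05, 0.63 and -0.07 in pairs 1, 2 and 3. The MYC transcript was higher in replicate 1 than in replicate 3 by 0.32 (SE 0.04, adjusted p = 2.36e-15). Its transcript GC content is 58.7%. After GC and length correction its log2 ratio in pair 2 was 0.04, and IL-10 replicate 2 differed from the mean of the other IL-10 libraries by 0.39 in place of 1.01.

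The promoters of the genes were searched for the E-box, spelled CACGTG, which reads the same on both strands. The list was drawn up for genes that MYC drives, so it can hold the motif more often than other genes by that choice alone. RefSeq promoters (GRCh38.p14, 250 bases before to 50 after the annotated start, the first listed where a gene has several) matched 27 of the 32 genes. Of these 27, 11 held the motif (40.7%): FBL, NOP2, NOP14, PES1, RRP9, UTP20, MYBBP1A, BYSL, NAT10, WDR43 and SRM. The share was 28% of 132 other genes of ribosome biogenesis and nucleotide or polyamine synthesis, 10.7% of 8391 genes averaging 100 or more, and 7.26% of all 35116 promoters. Promoters of the 27 genes also had a higher median GC content, 65.0% against 58.67% for all promoters, and the shares were not adjusted for it. The match is a description of these windows, not a measured binding site, and says nothing of the genes without one. The first 4 in the order of the gene list are printed, with the motif in capitals, which lies after the annotated start in each of them. FBL is at chr19:39846330-39846629, NOP2 at chr12:6568242-6568541, NOP14 at chr4:2963357-2963656 and PES1 at chr22:30591861-30592160, all on the minus strand and written 5′ to 3′.
FBL: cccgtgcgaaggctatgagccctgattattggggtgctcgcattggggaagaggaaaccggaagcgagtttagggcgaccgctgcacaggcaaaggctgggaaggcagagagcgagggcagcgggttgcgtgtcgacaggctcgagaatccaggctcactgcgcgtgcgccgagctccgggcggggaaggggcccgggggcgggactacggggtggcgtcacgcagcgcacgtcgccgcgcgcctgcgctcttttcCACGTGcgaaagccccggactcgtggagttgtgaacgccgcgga
NOP2: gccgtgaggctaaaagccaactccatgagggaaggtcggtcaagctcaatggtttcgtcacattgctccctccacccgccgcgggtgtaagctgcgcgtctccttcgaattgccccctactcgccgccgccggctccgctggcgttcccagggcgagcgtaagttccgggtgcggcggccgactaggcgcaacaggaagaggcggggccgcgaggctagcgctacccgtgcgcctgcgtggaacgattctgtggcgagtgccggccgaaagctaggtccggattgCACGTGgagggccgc
NOP14: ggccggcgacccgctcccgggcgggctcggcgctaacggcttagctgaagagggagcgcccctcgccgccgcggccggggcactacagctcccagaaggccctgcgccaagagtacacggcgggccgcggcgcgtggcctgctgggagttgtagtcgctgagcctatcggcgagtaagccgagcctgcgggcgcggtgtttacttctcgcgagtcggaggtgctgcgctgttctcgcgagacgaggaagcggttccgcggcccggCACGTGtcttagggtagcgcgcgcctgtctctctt
PES1: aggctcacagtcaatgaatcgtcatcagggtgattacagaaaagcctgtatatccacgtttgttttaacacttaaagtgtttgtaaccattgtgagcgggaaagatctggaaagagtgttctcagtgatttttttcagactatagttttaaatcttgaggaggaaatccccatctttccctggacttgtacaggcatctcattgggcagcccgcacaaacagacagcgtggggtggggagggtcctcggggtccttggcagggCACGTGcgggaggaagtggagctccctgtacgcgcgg

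In these windows the first base of the motif lies 6 bases after the annotated start position for FBL, 35 for NOP2, 15 for NOP14 and 13 for PES1. Among the 11 genes it begins before the start in 4, at -199 for SRM, -15 for NAT10, -10 for UTP20 and -5 for RRP9. Of the 6 genes not called between replicates 1 and 3, FBL, SRM and NAT10 hold it, and UTP20, with the largest difference, holds it too. No test was made on the motif.

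The rest of the pathway was taken from 6 lists of 154 other genes, all of which were measured and entered the test. None of the 154 passed in the comparison of IL-10 with control (limma adjusted p of 0.982 or above, 0 at an unadjusted p under 0.05, median log2 fold change 0.02, 83 positive). DDX21, an RNA helicase of the nucleolus with the highest mean normalised read count of the 60S list, stood at 17271, 20878 and 14972 in control and 18155, 14199.5 and 14921 with IL-10, lowest in IL-10 replicate 2, with a transcript GC content of 40.2%. POLR2E, a subunit shared by the RNA polymerases, stood at 7362, 9358 and 6694 and 7589, 16389 and 6195, highest in that library, with 59.4% GC. The split of GC-rich and GC-poor transcripts in pair 2 was also seen here: 64 of 66 genes of at least 50% GC were positive and 69 of 88 under 50% negative. Among all genes averaging 100 or more these counts were 4604 of 4842 and 4100 of 5643.

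Between replicates 1 and 3, 58 of the 154 were called higher in replicate 1 and 2 lower, beside 8.36% and 6.45% of all genes tested. Among genes averaging 100 or more, 16.6% were called higher and 1077 of 10505 lower. The calls were 27 of 54 genes of 60S maturation, 18 of 50 of the small subunit, 4 of 17 polymerase I and associated genes, 4 of 12 snoRNP genes, 4 of 9 pyrimidine genes and 1 of 12 polyamine genes. UBTF, an activator of polymerase I, had 0.24 (SE 0.04, adjusted p = 1.64e-06) and DDX21 0.24 (SE 0.04, adjusted p = 6.14e-09). CTPS1, which makes cytidine nucleotides, had 0.19 (adjusted p = 0.00619). NOP53, a 60S factor that recruits the exosome, was 1 of the 2 lower genes, at -0.17 (adjusted p = 0.000385), the other being SMOX, a polyamine oxidase of low level, at -1.30, which is named because it passed. Control replicate 2 was above both other controls for 125 of the 154, among them 49 of 50 small subunit genes but 4 of 12 polyamine genes. AZIN1 and OAZ1, which regulate ornithine decarboxylase, were even across control libraries, at 4737, 4777 and 4754 and 10047, 9834 and 9426, where ODC1 itself was at 6853, 10304 and 6002. Of the remaining genes named by the fixed rule, RUVBL1 and RUVBL2, ATPases that assemble snoRNPs, had log2 fold changes of 0.11 and 0.27 for IL-10 against control, UTP18 0.02, NOL11 -0.19 and CMPK1, a pyrimidine kinase, -0.07.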

How the data were processed

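RNA from 3 control and 3 IL-10 treated Kasumi-1 samples was extracted with Trizol and made into libraries with an Illumina TruSeq kit, per the labels' protocols. The authors deposited 1 table of 27576 genes under the name FPKM; it holds a signal that is read counts over 1 size factor per library (0.851 to 1.12). In each library 100% of values were whole multiples of 1 step within 0.01 read. For control replicate 2 the step, 0.994, is too close to 1 for an automatic check to accept, so edgeR was also run without it. Named in the submitters' processing notes are edgeR 3.18.1 and the builds GRCh38 and hg38. Which aligner, counter and annotation were used is not given in the sources used here.

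The test planned for FPKM was kept: two-sided limma 3.58.1 under R 4.3.3 on log2(value + 1) of the deposited signal, trended by mean level, for the 21946 genes reaching 1 in 3 or more libraries, and a Benjamini-Hochberg adjusted p under 0.05. It was checked on simulated data that held no replicate or GC effect, so the check does not cover the spread between replicates seen here. edgeR 4.0.16 and DESeq2 1.42.0 were run on the recovered reads. Coordinates, lengths and GC content are those of GENCODE 29 (27052 IDs matched), from 1 principal transcript per gene. The GC and length correction subtracted, per library, splines with 5 degrees of freedom fitted to deviations from gene means. Control and IL-10 libraries of the same number deviated together from their groups (r = 0.367, 0.605 and 0.726 across 11605 genes averaging 50 or more). All 3 exceed 0.1, and on that basis, taken from the values and not the labels, numbers were treated as pairing the samples. Of the differently numbered pairs, control 1 with IL-10 3 (0.208) and control 3 with IL-10 1 (0.176) also exceed 0.1, and the other 4 were negative. Genes, lists and tests were chosen with earlier results of these data known. Genes named are the 32, MYC and the 2 of highest mean in each of 6 other lists, and SMOX, chosen after its value was seen. Coding stretches were printed in place of promoters for 3 genes of extreme GC content (the sequence of another is not reported here), and the fit of replicate 1 against 3 was added after the values were seen.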

Additional observations from a re-analysis of the deposited data

How the results depend on the processing

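The count of the 32 genes past the threshold for IL-10 against control was 0 in the main analysis and in all 24 alternatives (other pseudocounts, filters, scalings, sample weights, tools, GC and length correction, the replicate block, and each library left out), with a lowest adjusted p of 0.688, with sample weights. The count over the 154 other pathway genes was also 0 throughout. Over all genes it was 0 except in pairs 1 and 3 only with the replicate block, where 10 passed, none of them among the 32. With the replicate block, which uses the pairing, 0 genes passed over all 6 libraries, the unadjusted count rose from 344 to 512 and no call changed. The median stayed at 0.16, which the balanced design fixes, so it is no check. The median log2 fold change of the 32 genes, 0.16, ran from -0.13 to 0.34 when 1 library was left out, was 0.35 in edgeR without control replicate 2, and was 0.06 with equal totals and 0.05 with quantile normalization. Every one of the 32 genes changed sign in at least 1 alternative (107 of 768 comparisons), none being called in either. The count higher in replicate 1 than in replicate 3, 26, was 17 with quantile normalization, 0 with all 6 libraries, and 0 to 0 when 1 of the 4 libraries was left out, where fewer samples entered the fit. The lowest value among the 32 genes in any library was 305 normalised reads, for PPAN.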
